A study of Mus musculus with 9 samples.

Results

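Granulocyte-monocyte progenitors (GMP) lacking nicastrin were compared with wild-type (WT) LSK cells on 6 of the 9 expression arrays of the series, 3 for each group. The arrays were chosen by their titles, and the remaining 3 arrays held WT GMP. LSK cells were sorted from bone marrow as lineage-negative, cKit+ and Sca1+. GMP were sorted as lineage-negative, cKit+, Sca1-, CD34+ and FcgammaRII/III+. All mice were 6 weeks old and carried Ncstn flox/flox, and the knockout (NcstnKO) littermates also carried Mx1-cre+, a Cre driven by an interferon-inducible promoter. Controls and knockouts alike received 3 injections of polyIC, a synthetic double-stranded RNA that triggers an interferon response, at 20 mcg per g of body weight from 14 days of age, and cells were taken 4 weeks after injection. LSK cells came from WT mice alone, so cell type, the loss of Ncstn and the presence of Cre cannot be told apart in NcstnKO GMP against LSK, and counts for WT GMP are given beside each gene group. RNA was amplified from 5 ng before it was hybridized. The labels do not state that each array came from a different mouse, so p-values measure the spread between these arrays, which may be technical in part.

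LSK cells are the marrow fraction that holds hematopoietic stem cells and multipotent progenitors. GMP arise from them and make neutrophils, monocytes and other granulocytes, while erythroid cells, platelets and lymphocytes come from other branches. Nicastrin is a subunit of gamma-secretase, the membrane protease that releases the intracellular part of Notch receptors after ligand binding. That fragment joins Rbpj and a Mastermind protein on DNA and raises targets such as Hes and Hey genes, and Notch signals are best known in blood for T cell commitment.

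Values are log2 of the deposited linear intensity per probe set, with 1 probe set for each of 18193 genes. The median intensity was 98.3 to 103 on the LSK arrays, 65.4 to 67.9 on the NcstnKO arrays and 67.3 to 68.6 on the WT GMP arrays, so the deposited values did not share 1 distribution. The median difference over probe sets, NcstnKO GMP minus LSK, was -0.16 as deposited, 0.08 once the arrays were quantile normalized, 0.22 after each array was centred on its 75th percentile and 0.43 after centring on its median. The deposited scaling is the main one. A call is described as held when it was made in the same direction under the deposited, quantile and 75th-percentile scalings. Both alternatives moved the median difference upward, so a rise could hardly fail to hold, and held says little for it. Of 2553 genes called higher 2545 held, and of 5763 called lower 2820 held. Median centring, which moved the differences furthest, is not part of the rule. The arrays of 1 group correlated at 0.988 to 0.994 over probe sets, and those of NcstnKO GMP with LSK at 0.952 to 0.964.

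**Figure D1:**
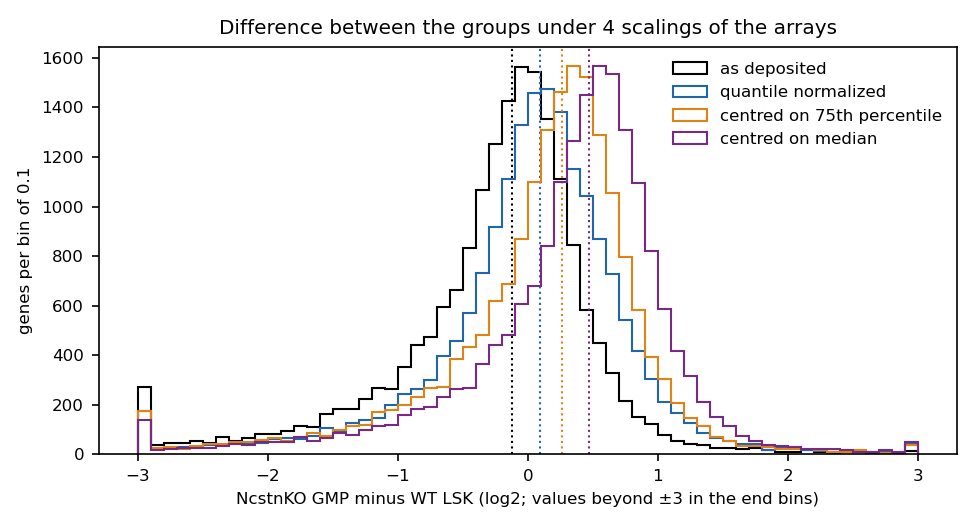
Histogram of the difference NcstnKO GMP minus WT LSK (log2) over 18193 genes under 4 scalings, with the median of each as a dotted line. The median over genes moves from -0.12 as deposited to 0.09, 0.26 and 0.47 under quantile, 75th-percentile and median scaling, so small differences change sign while the long tail of lower values on the left stays.

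Sex transcripts went against the labels on 4 of the 9 arrays. NcstnKO arrays 2 and 3 were labelled male but read 12.56 and 12.28 for Xist, the transcript of the inactive X chromosome, and 3.25 and 3.54 for the Y-linked Eif2s3y. WT GMP arrays 2 and 3 were labelled female but had Xist at 5.80 and 5.67 and Eif2s3y at 11.06 and 10.89. The 3 LSK arrays and array 1 of each GMP group matched their labels. All 3 NcstnKO arrays thus carried female transcripts, against 1 of 3 LSK arrays. Counts with NcstnKO array 1 alone, whose label matched, are given beside each gene group. Array 1 is female too, so these counts leave the sex imbalance in place and are no check of sex. With 1 array in the group, calls are also lost through lower power. With transcript sex as a covariate, 1850 genes were higher and 4480 lower in NcstnKO GMP than in LSK by limma. The log2 ratio of the 3' to the 5' Actb control probe set, a sign of RNA length, was 0.899 ± 0.14 (SD, n = 3) in NcstnKO GMP and 0.748 ± 0.108 in LSK, a difference of 0.151 (exact 2-sided permutation test, p = 0.3, where 0.1 is the smallest p that 3 against 3 arrays allow).

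Primary granule genes and genes of mast cells, basophils and eosinophils were mostly higher in NcstnKO GMP than in LSK, and most stem cell, lymphoid, erythroid, platelet and interferon-stimulated genes were lower, as were 11 of 27 late neutrophil genes. In all, 8316 of 18193 genes (45.7%) passed an adjusted p of 0.05. As deposited, 2553 genes (14.0%) were higher in NcstnKO GMP and 5763 (31.7%) were lower. That split depended on the scaling, with 5233 genes higher (28.8%) and 3690 lower (20.3%) when quantile normalized, 7718 (42.4%) and 3123 (17.2%) when centred on the 75th percentile, and 10461 (57.5%) and 2258 (12.4%) when centred on the median. Calls held under the first 3 scalings for 2545 higher genes (14.0%) and 2820 lower genes (15.5%). Called genes that differed at least 2-fold numbered 2759 (15.2%), and the arrays of the groups did not overlap for 10253 genes (56.4%). With NcstnKO array 1 alone, 1291 genes (7.10%) were higher and 3946 (21.7%) lower. WT GMP against the same LSK arrays gave 6651 genes (36.6%), of which 1274 were higher and 5377 lower. The difference between those comparisons is that of NcstnKO against WT GMP, which gave 601 genes (3.30%), 239 (1.31%) higher and 362 (1.99%) lower in NcstnKO, and 4249 (23.4%) at an unadjusted p under 0.05. In bulk samples such as these, fewer cells of a type and less RNA per cell cannot be told apart.

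**Figure D2:**
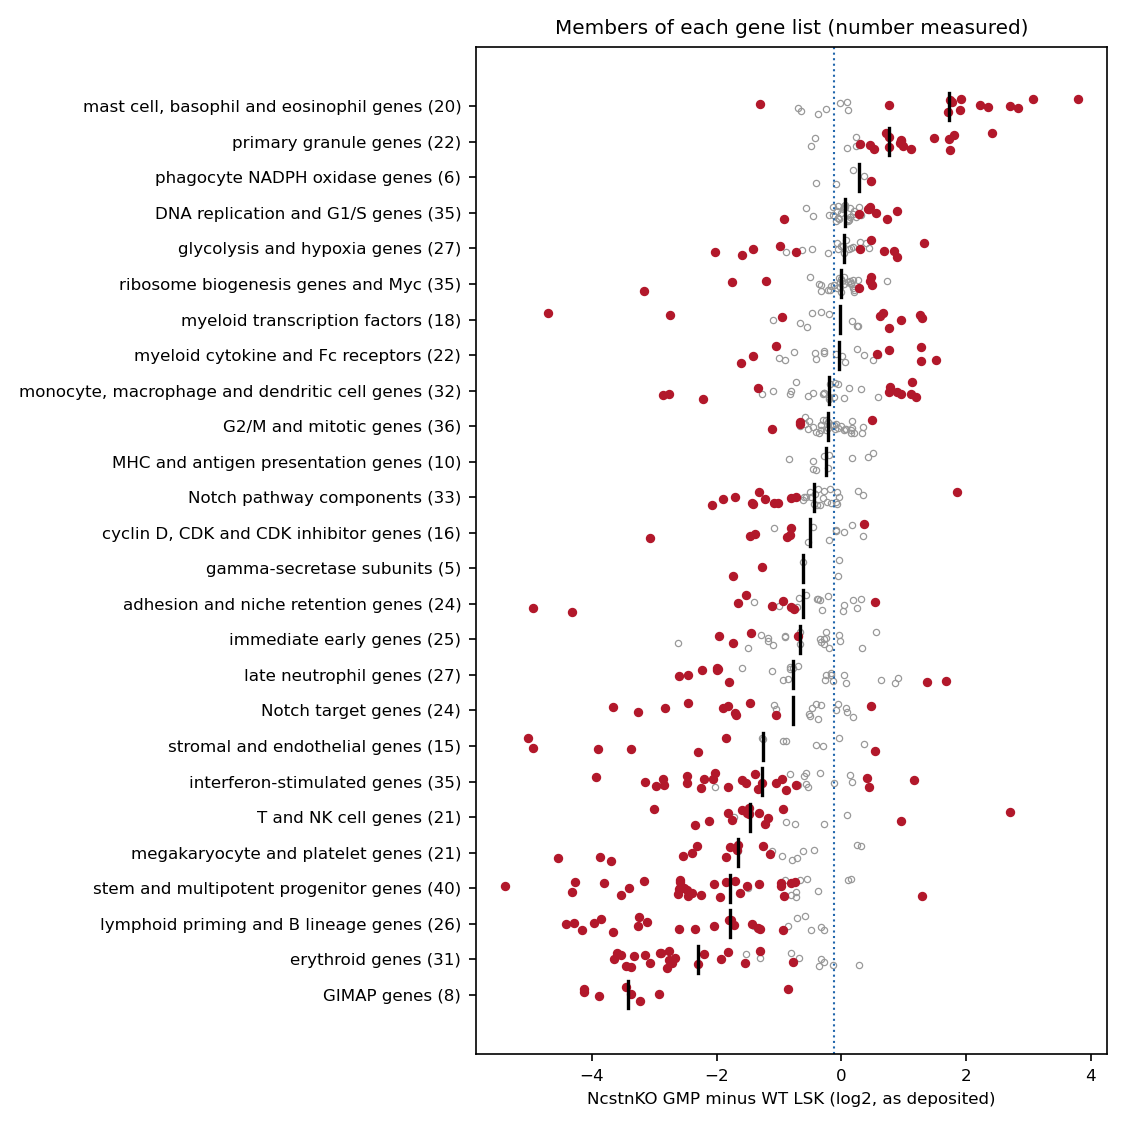
Difference NcstnKO GMP minus WT LSK (log2, as deposited) for the measured members of 26 gene lists, with the number measured in brackets. Filled points are members whose call held under the deposited, quantile and 75th-percentile scalings, open points are the others, black bars are list medians and the dotted line is the median of all genes, -0.12. Mast cell and primary granule genes lie to the right, and GIMAP, erythroid, lymphoid and stem cell genes to the left.

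The targeted gene was lower in the knockout. Ncstn read 7.79, 7.78 and 7.76 on the NcstnKO arrays, against 9.13, 9.02 and 8.99 on the LSK arrays and 9.25, 9.31 and 9.26 on the WT GMP arrays. The NcstnKO values lay below all others and differed among themselves by less than those of either WT group. Against LSK the difference was -1.27 (SE 0.08, adjusted p = 2.21e-05), a 2.41-fold lower level, and against WT GMP it was -1.50 (adjusted p = 0.00092). The difference from LSK was smaller in the other scalings, at -0.77 quantile normalized, -0.89 after 75th-percentile and -0.68 after median centring, and was called in each. A dimmer second Ncstn probe set was not called against LSK (-0.46, adjusted p = 0.0809) or against WT GMP (0.13, adjusted p = 0.737). Whether either probe set reads the floxed part of the gene is not given in the sources used here.

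Of the other gamma-secretase subunits measured, Aph1b, a scaffold subunit, was lower in NcstnKO GMP than in LSK. It read 6.42, 7.04 and 6.93 on the NcstnKO arrays and 8.44, 8.41 and 8.74 on the LSK arrays (-1.73, SE 0.19, adjusted p = 0.000175). WT GMP had Aph1b at 6.67, 6.81 and 6.38, and NcstnKO GMP differed from them by 0.18 (adjusted p = 0.625). Psen2, a catalytic presenilin, was lower as deposited (-0.61, adjusted p = 0.0111), a call that did not hold in the other scalings. Psenen, which activates the complex, differed from LSK by -0.06 (adjusted p = 0.591) and Aph1a, the other scaffold subunit, by -0.03, and the sign of each turned with the scaling (Psenen 0.32 and Aph1a 0.35 after centring on the 75th percentile). A dimmer Aph1a probe set was called lower than in LSK (-0.56, adjusted p = 0.0344), and the third was not called (-0.23, adjusted p = 0.375). Of the 5 subunits, 3 were lower than in LSK (2 with NcstnKO array 1 alone), and 2 were lower in WT GMP than in LSK.

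The genes of the sort followed the gates in part. Fcgr3, the low-affinity IgG receptor that GMP are gated on, read 11.74, 12.03 and 12.15 in NcstnKO GMP and 10.36, 10.46 and 11.25 in LSK, with no overlap (1.28, adjusted p = 0.0019). Fcgr2b, the inhibitory IgG receptor that the same antibody detects, was higher by 0.57 (adjusted p = 0.00198). Kit, the stem cell factor receptor on which both fractions are gated, was lower in NcstnKO GMP (-0.75, adjusted p = 0.00125), and Cd34 was lower too (-0.81, adjusted p = 0.000944). After centring on the array median neither was called, with Kit at -0.16 (adjusted p = 0.248) and Cd34 at -0.21 (adjusted p = 0.139). With NcstnKO array 1 alone, Fcgr3 (adjusted p = 0.0574) and Fcgr2b (adjusted p = 0.0502) were not called. Sca1 itself (Ly6a) had no probe set with a symbol of its own and was not analysed here.

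Notch pathway components were lower in NcstnKO GMP than in LSK more often than higher: 20 of 33 measured components were lower and 1 was higher, with 11 and 1 held, a median of -0.44 and, with NcstnKO array 1 alone, 13 and 1. The median turned to 0.15 after centring on the array median. In WT GMP against LSK, 14 were lower and 1 higher, with a median of -0.36. Against WT GMP, 1 component, the fucosyltransferase Pofut1, was lower in NcstnKO GMP (-0.53) and 0 were higher by limma, with 7 and 2 at an unadjusted p under 0.05, and the median difference was -0.04.

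By role, the receptors differed in size. Notch1, the receptor for T cell commitment, read 10.94, 10.70 and 10 in NcstnKO GMP against 11.92, 12.18 and 11.84 in LSK, without overlap (-1.43, SE 0.23, adjusted p = 0.00129). Notch3 was also lower (-1.89, adjusted p = 0.00238), while Notch2 was lower only as deposited (-0.49, adjusted p = 0.0167; -0.11 after centring on the 75th percentile) and Notch4 differed by -0.03 (adjusted p = 0.934). Among ligands, Jag2 read 7.93, 7.81 and 7.65 in NcstnKO GMP and 10.38, 10.36 and 8.88 in LSK (-2.08, adjusted p = 0.00186). Dll1 was at background in NcstnKO GMP and at least 1.71-fold lower than in LSK (adjusted p = 0.000269). Rbpj, the DNA-binding partner of the Notch fragment, was not called (-0.17, adjusted p = 0.36). The coactivator Maml2 was at least 1.93-fold lower, at background in NcstnKO GMP. Dtx4, a Deltex family ubiquitin ligase, went the other way, at 10.75, 11.16 and 10.85 in NcstnKO GMP against 8.83, 9.14 and 9.21 in LSK (1.86, SE 0.14, adjusted p = 3.79e-05). The individual receptors, Jag2 and Rbpj are given for their role and were picked after their values were seen.

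Of 24 genes listed as Notch targets, 13 were lower and 1 was higher in NcstnKO GMP than in LSK, 10 and 1 held, and the median was -0.78 (10 and 1 with NcstnKO array 1 alone). Il2ra, the interleukin-2 receptor alpha chain, read 6.85, 6.93 and 7.47 in LSK and 4.53, 3.53 and 3.42 in NcstnKO GMP, at background there, at least 6.03-fold lower. Nrarp, a feedback inhibitor of Notch, was lower (-1.69, SE 0.16, adjusted p = 0.000111), as was Ccnd1, which encodes cyclin D1 (-1.47, adjusted p = 3.97e-05). Hes6, an inhibitory member of the Hes family, was higher (0.47, adjusted p = 0.00623). Hes1, the best known Notch target, read 6.07, 6.26 and 6.01 in NcstnKO GMP and 6.45, 6.27 and 5.86 in LSK, with overlapping groups (-0.08, adjusted p = 0.729; named after its value was seen). The same targets were lower in WT GMP than in LSK in 13 cases, with a median of -0.83. Against WT GMP, limma called 0 of the 24 in either direction (1 higher and 4 lower at an unadjusted p under 0.05), with Nrarp at -0.31 and Hes1 at 0.03.

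Stem and multipotent progenitor genes were lower in NcstnKO GMP in 35 of 40 cases and higher in 1, with 29 and 1 held, a median of -1.78, and 30 and 0 with NcstnKO array 1 alone. Mecom, a transcription factor of stem cell self-renewal, read 8.08, 8.47 and 7.97 in NcstnKO GMP and 12.19, 11.95 and 11.79 in LSK (-3.81, SE 0.20, adjusted p = 1.3e-05). Every NcstnKO array lay more than 3 log2 units below every LSK array for this gene. Esam, an endothelial adhesion molecule that marks stem cells, was 20.0-fold lower (-4.32, adjusted p = 1.3e-05). The transcription factors Gata3 (-2.46, adjusted p = 1.61e-05) and Erg (-1.94, adjusted p = 2.75e-05) were also lower. Clu, the chaperone clusterin, stood alone against the list at 9.76, 9.91 and 10.85 in NcstnKO GMP against 9.17, 8.88 and 8.56 in LSK (1.30, adjusted p = 0.00787; 0.89 with NcstnKO array 1 alone, adjusted p = 0.0759). In WT GMP 35 members were lower than in LSK, with a median of -1.43. NcstnKO differed from WT GMP by a median of -0.29, with Msi2 (-0.55) and Vwf (-1.04) lower and Thy1 (1.37) higher. The summed intensity of the list was 93394 to 111694 on the LSK arrays, 49323 to 55758 on the WT GMP arrays and 39006 to 49655 on the NcstnKO arrays.

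Lymphoid priming and B lineage genes were lower in 24 of 26 cases and higher in 0, with 19 held, a median of -1.79 and 15 lower with NcstnKO array 1 alone. Ltb, the lymphotoxin beta chain, read 6.01, 5.70 and 5.53 in NcstnKO GMP against 10.14, 10.03 and 9.52 in LSK (-4.15, SE 0.22, adjusted p = 1.3e-05), and 5.43, 6.07 and 5.65 in WT GMP. The chemokine receptor Ccr9 was lower (-4.41, adjusted p = 0.0001), as was Il12rb1, an interleukin-12 receptor chain (-1.33, adjusted p = 3.76e-05). Bcl11a, a transcription factor needed for lymphoid development, was lower than in LSK (-1.80, adjusted p = 2.48e-05) and lower than in WT GMP (-0.63, adjusted p = 0.0365), and was the list's 1 call against WT GMP. Of its dimmer probe sets, the one at -0.62 was called against WT GMP too (adjusted p = 0.0418), and the others, from -0.54 to 0.12, were not. In WT GMP against LSK, 23 members were lower and 0 higher, with a median of -1.63. Some B lineage genes were spread over the NcstnKO arrays. Rag1, which cuts DNA for antigen receptor assembly, read 7.30, 5.14 and 3.99, against 8.98, 8.84 and 10.49 in LSK, and array 1 was the highest of the 3. Ms4a1, which encodes CD20, read 6.58, 5.35 and 4.16 in the same order, and Il7r, the interleukin-7 receptor, 7.43, 6.65 and 5.82. These 3 genes were named after their spread was seen, and Rag1 was not called with NcstnKO array 1 alone (-2.13, adjusted p = 0.0925).

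The GIMAP genes, GTPases of lymphocyte survival clustered in the genome, were lower in all 8 measured members, all 8 held, and in 7 with NcstnKO array 1 alone. Their median of -3.42 was the lowest of the 26 lists. Gimap5 read 5.42, 5.16 and 5.32 in NcstnKO GMP and 8.73, 8.62 and 8.25 in LSK (-3.23, SE 0.20, adjusted p = 1.96e-05). Gimap3 was 17.5-fold lower (-4.13, adjusted p = 5.25e-05). Gimap8 had a wider spread in NcstnKO GMP, at 8.38, 6.74 and 5.98, all below the LSK values of 11.41, 11.12 and 10.96. WT GMP also had all 8 below LSK (median -3.54), and limma called 0 of the 8 between NcstnKO and WT GMP, also at an unadjusted p under 0.05 (median -0.08).

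T and NK cell genes were lower in 15 of 21 cases and higher in 2, with 13 and 2 held (11 and 1 with NcstnKO array 1 alone). Their median was -1.47, and WT GMP against LSK gave 16 lower and 2 higher with a median of -1.32. Cd2, an adhesion receptor of T cells, read 5.03, 4.87 and 4.97 in NcstnKO GMP and 7.66, 7.93 and 8.29 in LSK (-3.0, adjusted p = 1.83e-05). Cd4 was lower as well (-2.12, adjusted p = 0.000118). The 2 higher members are granule genes that other lists share. Gzmb, which encodes the protease granzyme B, was higher at 10.35, 9.96 and 8.76 against 7.03, 6.86 and 7.04 (2.71, adjusted p = 0.000387), and Nkg7, a granule membrane protein, was higher by 0.96. Cd8b1, Trat1, Ncr1, Cd3g and Tbx21 were at background in NcstnKO GMP only, and Ptcra in both groups.

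Interferon-stimulated genes were lower in NcstnKO GMP in 27 of 35 cases and higher in 3, with 21 and 3 held, a median of -1.27, and 26 and 2 with NcstnKO array 1 alone. Oas3, a sensor that activates RNase L, read 5.16, 5.07 and 4.89 in NcstnKO GMP and 7.40, 7.61 and 7.53 in LSK (-2.47, SE 0.12, adjusted p = 9.68e-06). Oas2 (-2.25, adjusted p = 2e-05) and Ddx58, the RNA sensor RIG-I (-2.05, adjusted p = 3.01e-05), were lower as well. Ifit1, which binds viral RNA, was at background in NcstnKO GMP and at least 7.51-fold lower. The 3 higher members were Gbp3, a guanylate-binding protein (1.17, adjusted p = 0.000184), Ifi35 (0.45) and the immunoproteasome subunit Psmb9 (0.41). WT GMP had, relative to LSK, 28 lower and 1 higher, with a median of -1.21. NcstnKO differed from WT GMP in 1 lower member, Usp18, which removes the ubiquitin-like Isg15 (-1.35, adjusted p = 0.0334), and in 2 higher ones, Oas1a (0.69) and Psmb9 (0.41), with a median of 0.16. The antigen presentation genes moved less, with 2 of 10 lower, 0 held and 0 higher at an adjusted p (4 lower and 0 higher at an unadjusted p under 0.05). Their median was -0.25, neither call was made with NcstnKO array 1 alone, and 1 was lower without LSK array 1, 2 or 3 or NcstnKO array 3. Against LSK, WT GMP had 2 lower and 0 higher, with a median of -0.55. Ciita, the MHC class II transactivator, was lower as deposited (-0.84, adjusted p = 0.0141).

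Myeloid transcription factors split. Of 18 measured, 7 were higher and 5 lower in NcstnKO GMP than in LSK, with 6 and 3 held, and 3 and 5 with NcstnKO array 1 alone. WT GMP arrays against LSK gave 7 higher and 5 lower as well. Leaving out 1 array at a time, NcstnKO GMP had 5 or 6 higher and 4 or 5 lower than LSK. With label sex or the Actb ratio as a covariate, or with the replicate block, 5 were higher and 6 lower. The median was -0.02 in NcstnKO GMP and -0.11 in WT GMP. Cebpa, which GMP need to form, read 12.68, 12.74 and 12.68 in NcstnKO GMP, 11.98, 12.02 and 12.24 in LSK and 12.83, 12.82 and 12.87 in WT GMP (0.62 against LSK, SE 0.09, adjusted p = 0.000922). Cebpb, a factor of emergency granulopoiesis, was higher by 1.29 and Cebpd, a related factor, by 1.26. Gfi1, a repressor needed by neutrophils, rose by 0.96, and Spi1, which encodes PU.1, by 0.67. Irf8, a factor of monocyte and dendritic cell fate, read 12.30, 12.35 and 11.48 against 10.88, 11.33 and 11.64, so that NcstnKO array 3 overlapped LSK (0.76, adjusted p = 0.0488). Cebpb, Cebpd, Gfi1, Spi1 and Irf8 were picked by role after their values were seen.

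Among the factors that were lower, Irf4, a factor of lymphoid and dendritic cells, read 7.24, 6.44 and 5.42 in NcstnKO GMP and 10.86, 11.12 and 11.25 in LSK (-4.71, SE 0.47, adjusted p = 0.000126). Gfi1b, the erythroid and megakaryocytic relative of Gfi1, was lower at 7.84, 7.51 and 7.95 against 10.44, 10.47 and 10.63 (-2.75, adjusted p = 2.21e-05). WT GMP had Gfi1b between them at 9.34, 8.72 and 9.14, above NcstnKO GMP (-1.30, adjusted p = 0.0249). The homeobox factor Hhex was lower than in LSK (-0.95, adjusted p = 0.000957). Of 22 myeloid cytokine and Fc receptors, 5 were higher and 6 lower, with 5 and 3 held (3 and 6 with NcstnKO array 1 alone). The other 11 receptors were not called, and the share of the list called lay near the 45.7% of all genes. WT GMP against LSK gave 7 higher and 7 lower, with medians of -0.04 in NcstnKO GMP and 0.09 in WT GMP. Ifngr1, the interferon-gamma receptor, was higher at 11.99, 12.24 and 12.14 against 10.67, 10.40 and 10.73 (1.52, adjusted p = 4.96e-05). The sialic acid receptor Cd33 (-1.61), the interleukin-1 receptor Il1r1 (-1.42) and Il17ra (-1.05) were lower.

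The primary granule list holds genes whose products promyelocytes pack into the first granules of the neutrophil lineage, such as Elane and Mpo. It also holds genes whose products are not granule contents, such as Alas1 and Ms4a3. Of 22 measured, 16 were higher and 2 lower in NcstnKO GMP than in LSK, with 16 and 0 held, a median of 0.77, and 9 higher and 0 lower with NcstnKO array 1 alone. Without NcstnKO array 1 or 2, 1 was lower, and without NcstnKO array 3 or LSK array 3, 0. WT GMP gave 17 higher and 2 lower with a median of 0.63. Between NcstnKO and WT GMP limma called 0 of the 22 (1 higher and 1 lower at an unadjusted p under 0.05), with a median of 0.01. The summed intensity was 105484 to 124891 on the LSK arrays, 168702 to 168971 on the WT GMP arrays and 164913 to 178841 on the NcstnKO arrays.

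Alas1, the first enzyme of heme synthesis, read 12.33, 12.64 and 12.43 in NcstnKO GMP and 9.98, 10.14 and 10.06 in LSK (2.41, SE 0.11, adjusted p = 7.01e-06). Cst7, an inhibitor of granule cathepsins, read 12.15, 12.39 and 12.43 against 10.52, 10.41 and 10.77 (1.75, adjusted p = 2.9e-05). Ms4a3, a membrane protein of GMP, read 13.51, 13.57 and 13.62 against 12.14, 11.84 and 12.26 (1.49, adjusted p = 4.44e-05). None of these 3 genes had overlapping groups. Elane, neutrophil elastase, was 2.16-fold higher (1.11, adjusted p = 7.3e-05), and Mpo, myeloperoxidase, 1.23-fold (0.30, adjusted p = 0.0159), with Mpo already at 13.56, 13.48 and 13.64 in LSK and not called with NcstnKO array 1 alone (adjusted p = 0.151). The lysozyme genes Lyz1 (-0.42) and Lyz2 (-0.49) were the 2 lower members. They are near-identical copies whose signals may not be told apart, and neither call held.

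The promoters of the 4 list members with the smallest p that have an entry are shown because these genes were higher together, as the 250 bases before the start, 5′ to 3′, from RefSeq on GRCm38.p6. Capitals mark matches to a C/EBP motif (TTNCNNAA) or an ETS motif that PU.1 binds (GAGGAA), searched on both strands.
Alas1 (chr9:106247955-106248204, minus strand, the first of 2 listed starts): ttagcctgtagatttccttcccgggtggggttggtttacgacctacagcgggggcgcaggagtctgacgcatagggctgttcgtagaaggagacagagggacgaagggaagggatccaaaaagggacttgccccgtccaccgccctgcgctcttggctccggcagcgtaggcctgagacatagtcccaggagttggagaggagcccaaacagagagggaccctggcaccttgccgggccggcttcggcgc
Cst7 (chr2:150570165-150570414, plus strand): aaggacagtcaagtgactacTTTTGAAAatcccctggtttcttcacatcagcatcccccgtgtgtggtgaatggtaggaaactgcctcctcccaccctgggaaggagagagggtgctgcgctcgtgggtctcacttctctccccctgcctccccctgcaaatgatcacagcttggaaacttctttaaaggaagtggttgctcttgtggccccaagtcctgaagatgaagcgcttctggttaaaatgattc
Ms4a3 (chr19:11640852-11641101, minus strand): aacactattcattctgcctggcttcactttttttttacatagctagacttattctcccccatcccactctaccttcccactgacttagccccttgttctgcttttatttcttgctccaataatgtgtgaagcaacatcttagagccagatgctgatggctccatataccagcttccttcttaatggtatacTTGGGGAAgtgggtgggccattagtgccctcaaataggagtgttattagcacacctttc
Elane (chr10:79886062-79886311, plus strand): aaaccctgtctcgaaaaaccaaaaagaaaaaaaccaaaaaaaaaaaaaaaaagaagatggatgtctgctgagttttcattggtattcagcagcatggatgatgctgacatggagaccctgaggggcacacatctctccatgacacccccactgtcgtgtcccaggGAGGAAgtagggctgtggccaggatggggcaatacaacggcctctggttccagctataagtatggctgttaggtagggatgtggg
A C/EBP match lay at -230 to -223 from the start in Cst7 and at -59 to -52 in Ms4a3, and an ETS match at -85 to -80 in Elane. Cst7 also held a RUNX motif (TGTGGT) at -188 to -183, and Elane a MYB motif (CNGTTG) at -51 to -46. The marked matches overlap no other motif searched, and Alas1 held none of the 4. Of all 27025 promoters of this length, 36.9% held the C/EBP motif, 23.1% the ETS motif, 29.3% the MYB motif and 14.2% the RUNX motif. Among the 19 of 22 list members with an entry, 7, 7, 8 and 7 held them. A match is only a run of letters in this window and does not show that a factor binds.

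**Figure D3:**
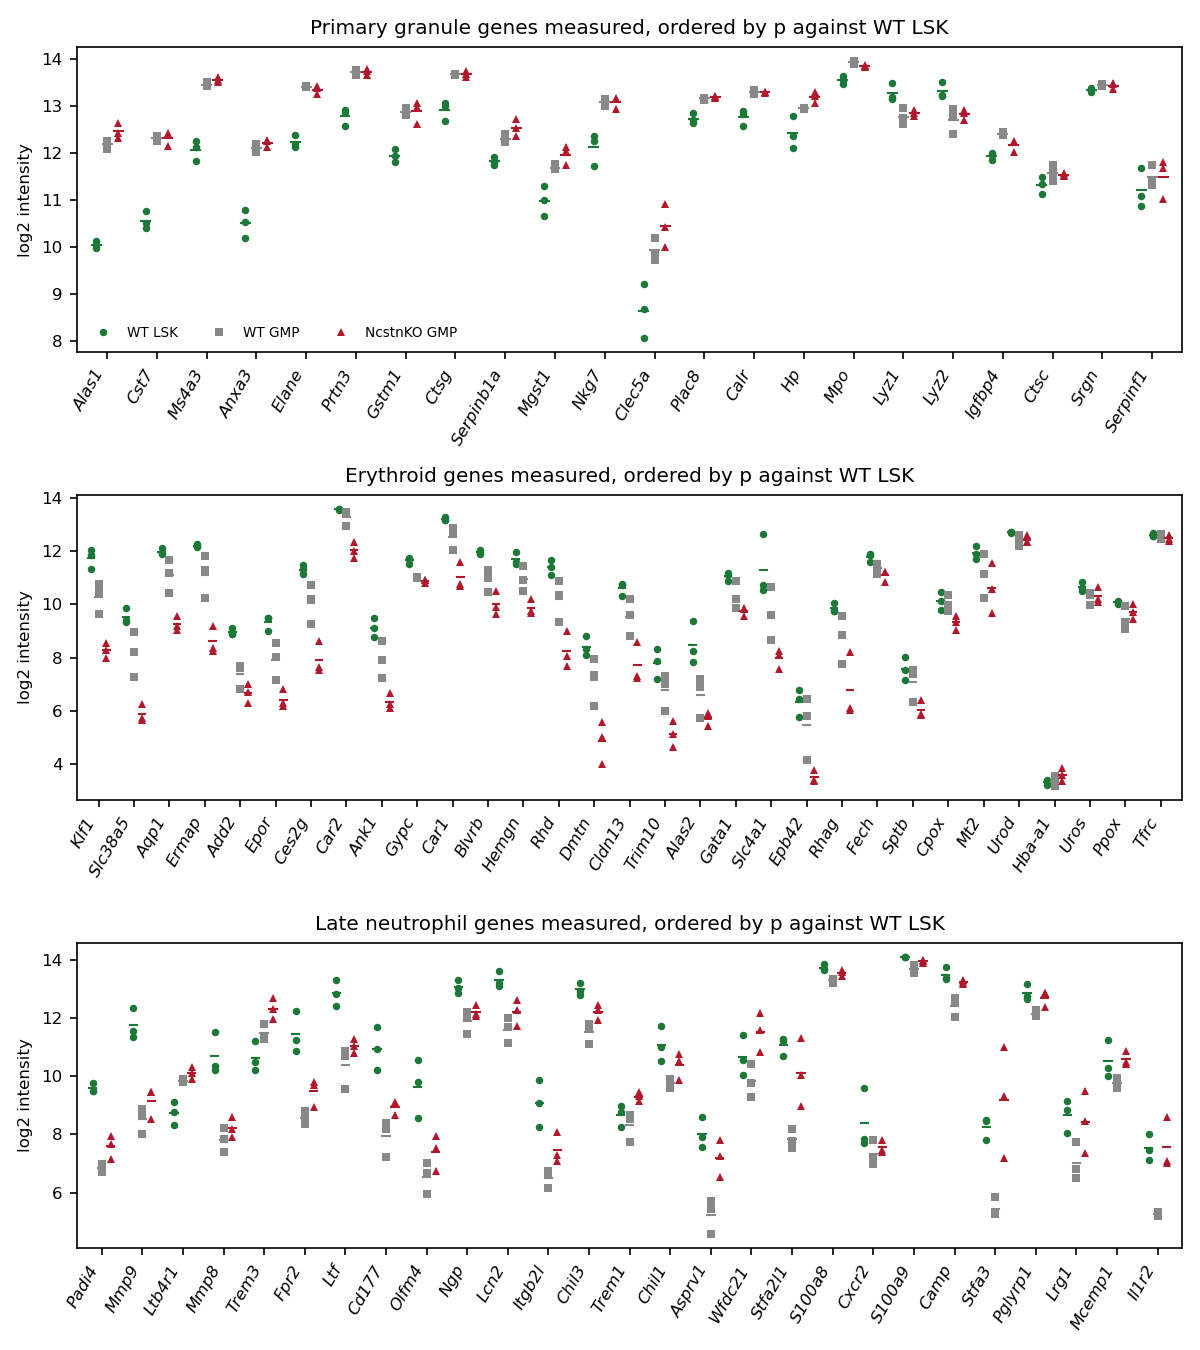
Log2 intensity on each of the 9 arrays for primary granule genes (22), erythroid genes (31) and late neutrophil genes (27), with short lines at group means and 3 arrays a group. Primary granule genes of NcstnKO GMP lie with WT GMP, erythroid genes of NcstnKO GMP mostly lie below both other groups, and late neutrophil genes of LSK lie at or above both GMP groups for most members.

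Late neutrophil genes were more often lower than higher as deposited. Of 27 measured, 11 were lower and 2 higher in NcstnKO GMP than in LSK, with 7 and 2 held, a median of -0.77 and 9 and 2 with NcstnKO array 1 alone. The other 14 were not called. The share called was 48.1%, near the 45.7% of all genes, of which 31.7% were lower. After centring on the array median, 6 members were higher and 7 lower, with a median of -0.18. Mmp9, gelatinase B of tertiary granules, read 8.53, 9.45 and 9.45 in NcstnKO GMP and 11.35, 11.55 and 12.36 in LSK (-2.61, SE 0.35, adjusted p = 0.000521). Padi4, which modifies histones in neutrophil traps, was lower (-2.0, adjusted p = 0.000116), as was Mmp8, the neutrophil collagenase (-2.46, adjusted p = 0.00073). Ltb4r1, the leukotriene B4 receptor, was higher at 9.90, 10.33 and 10.11 against 8.33, 8.77 and 9.13 (1.37, adjusted p = 0.00069), as was the activating receptor Trem3 (1.68, adjusted p = 0.00151).

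WT GMP lay further below LSK for these genes, with 21 of 27 lower, 2 higher and a median of -1.66. NcstnKO GMP lay above WT GMP by a median of 0.81, with 3 members called higher and 0 lower (18 higher and 0 lower at an unadjusted p under 0.05). Stfa3, a cysteine protease inhibitor, read 7.20, 9.32 and 11 in NcstnKO GMP, 5.25, 5.84 and 5.26 in WT GMP and 7.82, 8.48 and 8.50 in LSK. It was above WT GMP on every NcstnKO array (3.73, adjusted p = 0.0456) and overlapped LSK (0.91, adjusted p = 0.37). Il1r2, the interleukin-1 decoy receptor, read 7.01, 7.07 and 8.59 in NcstnKO GMP, 5.32, 5.19 and 5.30 in WT GMP (2.29, adjusted p = 0.0314) and 7.11, 7.45 and 8.0 in LSK (0.04, adjusted p = 0.948). Asprv1, an aspartic protease, was the third call against WT GMP (1.97, adjusted p = 0.0432). Leaving out 1 array at a time, the calls against WT GMP remained for Stfa3 and Asprv1 in 1 of 9 fits each and for Il1r2 in 3 of 9. The summed intensity of the list was 92634 to 134086 in LSK, 48879 to 59541 in WT GMP and 68069 to 89395 in NcstnKO GMP, and its part in other results was not tested.

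Mast cell, basophil and eosinophil genes had the highest median of the 26 lists, 1.72, with 12 of 20 higher and 1 lower, all held, and 11 and 1 with NcstnKO array 1 alone (2 lower without NcstnKO array 1 or WT GMP array 3). Prg3, an eosinophil granule protein, read 11.10, 11.52 and 10.71 in NcstnKO GMP and 7.71, 7.80 and 8.57 in LSK (3.08, SE 0.26, adjusted p = 6.55e-05). Its relative Prg2, the major basic protein, was higher by 1.71 and the eosinophil receptor Siglecf by 1.78. Fcer1a and Ms4a2, chains of the IgE receptor, were 14.0-fold and 7.09-fold higher. Gata1, the factor shared with the erythroid branch, was the lower member (-1.31). WT GMP had, relative to LSK, 12 higher and 1 lower (median 1.86). NcstnKO and WT GMP differed by a median of -0.17, with 0 of 20 called by limma and 0 higher and 4 lower at an unadjusted p under 0.05. Ccr3 and Tpsab1 were at background in both NcstnKO GMP and LSK.

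Monocyte, macrophage and dendritic cell genes were mixed, with 7 of 32 higher and 8 lower, 7 and 4 held (6 and 7 with NcstnKO array 1 alone) and a median of -0.19. The share of the list called was 46.9%, near the 45.7% of all genes. Against LSK, WT GMP had 8 higher and 7 lower, with a median of -0.15. The complement genes C1qa, C1qb and C1qc, made by tissue macrophages, were lower. C1qc read 5.00, 4.89 and 4.90 in NcstnKO GMP, 6.86, 7.35 and 7.21 in LSK (-2.21, adjusted p = 2.9e-05) and 6.36, 6.62 and 6.18 in WT GMP (-1.46, adjusted p = 0.0156). C1qa was below WT GMP as well (-0.91, adjusted p = 0.0317), and C1qb was lower than in LSK (-2.86). Ms4a6c, a monocyte membrane protein, was higher at 12.25, 12.08 and 12.01 against 10.99, 10.76 and 11.16 (1.14, adjusted p = 0.000281). Ccr2, the receptor by which monocytes leave the marrow, was higher by 1.20 and is named after its value was seen.

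Erythroid genes were lower in 25 of 31 cases and higher in 0, with 22 held, a median of -2.29, and 25 lower and 0 higher with NcstnKO array 1 alone. Against WT GMP their median of -1.24 was the lowest of the 26 lists, with 9 lower and 0 higher by limma (22 lower and 0 higher at an unadjusted p under 0.05). Klf1, the master factor of red cell genes, read 8.31, 7.98 and 8.54 in NcstnKO GMP, 10.78, 9.63 and 10.45 in WT GMP and 11.33, 12.04 and 11.85 in LSK. The 3 groups did not overlap (-3.46 against LSK, SE 0.30, adjusted p = 7.32e-05, and -2.01 against WT GMP, adjusted p = 0.0268). Ermap, a red cell membrane protein, read 8.36, 8.27 and 9.21 in NcstnKO GMP, 11.80, 10.24 and 11.30 in WT GMP and 12.21, 12.16 and 12.26 in LSK, in the same order. Aqp1, the red cell water channel, was lower than in LSK (-2.72, adjusted p = 0.00015) and than in WT GMP (-1.82, adjusted p = 0.0268). Slc38a5, a glutamine transporter, was lower than in both as well (-3.65 and -2.26). In WT GMP against LSK 12 members were lower and 0 higher (22 and 0 at an unadjusted p under 0.05), with a median of -0.89. The summed intensity was 80890 to 94100 in LSK, 40816 to 67668 in WT GMP and 28869 to 38379 in NcstnKO GMP. Hba-a1 was at background in NcstnKO GMP and LSK on its probe set.

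Megakaryocyte and platelet genes were lower in 17 of 21 cases and higher in 0, with 12 held and a median of -1.65 (11 lower and 1 higher with NcstnKO array 1 alone). Tubb1, the platelet tubulin, read 5.32, 5.03 and 5.01 in NcstnKO GMP and 9.99, 9.75 and 9.27 in LSK (-4.55, SE 0.18, adjusted p = 4.81e-06). WT GMP had it at 5.92, 6.06 and 5.84, above every NcstnKO array, a difference that missed the threshold (-0.81, adjusted p = 0.0506). Rab27b, a GTPase of granule release, was lower than in LSK (-1.67) and than in WT GMP (-0.82, adjusted p = 0.0354). Mmrn1, a platelet granule protein, was lower than in LSK (-3.70, adjusted p = 7.82e-05). In WT GMP against LSK 16 members were lower and 0 higher, with a median of -0.95. The list had 3 lower members, Rab27b, F2r (-0.64) and Vwf (-1.04), and 0 higher against WT GMP (9 and 0 at an unadjusted p under 0.05), with a median of -0.48.

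Stromal and endothelial genes were lower in 9 of 15 cases and higher in 1, Pecam1, with 6 and 1 held and a median of -1.26 (4 lower and 0 higher with NcstnKO array 1 alone). The count of higher members was 0 without LSK array 2 or 3, WT GMP array 3 or NcstnKO array 1 or 2, and 2 without NcstnKO array 3. WT GMP arrays against LSK gave 7 lower and 1 higher, with a median of -1.44. Sparc, a matrix protein, was lower (-3.38, adjusted p = 0.000689). Col3a1, Col1a1, Lepr, Dcn, Pdgfra and Kitl were at background in NcstnKO GMP and above it in LSK, Cdh5 was at background in LSK, and Cav1 in both. The summed intensity of the list was 4275 to 6373 in LSK, 1955 to 2512 in WT GMP and 1572 to 2047 in NcstnKO GMP, and its part in other results was not tested. Adhesion and niche retention genes were lower in 14 of 24 cases and higher in 1, with 8 and 1 held and a median of -0.62 that was -0.03 after centring on the array median. With NcstnKO array 1 alone 10 were lower and 1 higher, and 0 were higher without LSK array 2, WT GMP array 3 or NcstnKO array 1 or 2. WT GMP against LSK gave 9 lower and 1 higher, with a median of -0.27. Itga4, the integrin alpha-4 chain that retains progenitors in marrow, read 11.43 ± 0.089 (SD, n = 3) in NcstnKO GMP and 12.38 ± 0.025 in LSK (-0.94, adjusted p = 0.00012), and was lower than in WT GMP too (-0.62, adjusted p = 0.0268). Itgb2, the leukocyte beta-2 integrin chain, was lower than in LSK (-1.53).

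As deposited, most genes of the replication and mitotic lists were not called. Of 35 DNA replication and G1/S genes, 7 were higher and 2 lower (7 and 1 held, median 0.06), so that 25.7% were called against 45.7% of all genes. After centring on the 75th percentile 27 were higher and 1 lower, where 42.4% of all genes were higher. After median centring 31 were higher and 0 lower, so the low share did not hold under either centring. The count of higher members was 3 without LSK array 1, and with NcstnKO array 1 alone 2 were higher and 1 lower. WT GMP had, relative to LSK, 2 higher and 2 lower, with a median of 0.11. Orc1, an origin recognition subunit, was higher by 0.90 (adjusted p = 0.0019) and Pole, the leading-strand polymerase, was lower (-0.92, adjusted p = 0.000877). Of 36 G2/M and mitotic genes, 9 were lower and 1 higher, but 3 and 1 held, and the median moved from -0.22 as deposited to 0.16 after centring on the 75th percentile. With NcstnKO array 1 alone 10 were lower and 0 higher, and 2 were higher without NcstnKO array 1. As deposited, 27.8% of these mitotic genes were called, below the 45.7% of all genes. After centring on the 75th percentile 12 were higher and 3 lower, and after median centring 19 and 1. Against LSK, WT GMP had 3 lower and 0 higher, with a median of -0.07. Prc1, which bundles the mitotic spindle midzone, was lower than in LSK (-0.66, adjusted p = 0.000377) and than in WT GMP (-0.42, adjusted p = 0.0404). Of 16 cyclin D, CDK and CDK inhibitor genes, 8 were lower and 1 higher, 6 and 1 held, with a median of -0.50 (7 and 1 with NcstnKO array 1 alone). The higher call was lost without LSK array 1, 2 or 3 or NcstnKO array 1 or 2. WT GMP arrays against LSK gave 7 lower and 1 higher, with a median of -0.40. Cdkn1c, the inhibitor p57 that keeps stem cells quiescent, read 4.18, 4.62 and 4.62 in NcstnKO GMP and 7.67, 8.06 and 6.88 in LSK (-3.06, SE 0.27, adjusted p = 6.99e-05).

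Of 35 ribosome biogenesis genes and Myc family members, 4 were higher and 6 lower, 4 and 3 held, with a median of -0.01 (2 and 4 with NcstnKO array 1 alone). Without LSK array 1 or 3 or NcstnKO array 1, 2 were higher. As deposited, 28.6% of the list was called, below the 45.7% of all genes. That low share did not hold under either centring. After centring on the 75th percentile 24 were higher and 3 lower, and after median centring 29 and 3. WT GMP against LSK gave 3 higher and 4 lower, or 0 and 4 with the replicate block. Mycn read 9.32, 8.78 and 8.63 in NcstnKO GMP and 12.15, 12.12 and 11.94 in LSK (-3.16, adjusted p = 3.22e-05), while Myc was not called (0.19, adjusted p = 0.159; named after its value was seen). The Myc antagonists Mxd1 (-1.76) and Mxd4 (-1.20) were lower. In the glycolysis and hypoxia list 6 of 27 were higher and 8 lower, 6 and 5 held, with a median of 0.04 (2 and 6 with NcstnKO array 1 alone). WT GMP had, relative to LSK, 6 higher and 8 lower. The share of the glycolysis and hypoxia list called in NcstnKO GMP was 51.9%, near the 45.7% of all genes. Its members differed by isoform, with the platelet phosphofructokinase Pfkp (0.89) and the hexokinase Hk3 (1.33) higher and the muscle phosphofructokinase Pfkm (-1.60) and the aldolase Aldoc (-2.02) lower. Of 6 phagocyte NADPH oxidase genes, Cyba, the small membrane subunit, was higher than in LSK (0.47, adjusted p = 0.00989) and than in WT GMP (0.54, adjusted p = 0.0464). Rac2, its GTPase, was lower as deposited (-0.41, adjusted p = 0.018), a call lost without LSK array 3 (adjusted p = 0.0582) or without NcstnKO array 1 (adjusted p = 0.057). Without LSK array 3, 4 of the 6 were higher. Neither Cyba nor Rac2 was called with NcstnKO array 1 alone. Between WT GMP and LSK limma called 0 of the 6 (0 higher and 0 lower at an unadjusted p under 0.05).

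Of 25 immediate early genes, 7 were lower and 0 higher in NcstnKO GMP (12 and 0 at an unadjusted p under 0.05), with 4 held. The 7 are 28.0% of the list, against 31.7% of all genes lower, so the list's share lay near the background. The count was 4 without LSK array 1 or 2 or NcstnKO array 3, and 3 with NcstnKO array 1 alone. Against LSK, WT GMP had 10 lower and 0 higher, or 17 and 0 with the replicate block. The smallest p were those of Ier5 (-1.74, adjusted p = 0.000201) and Dnajb1 (-0.70, adjusted p = 0.00099). The nuclear receptor Nr4a2 was lower as well (-1.96, adjusted p = 0.00355). Of its dimmer probe sets, those at -1.94, -1.12 and -1.70 were called and those at 0.23 and 0.30 were not.

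**Figure D4:**
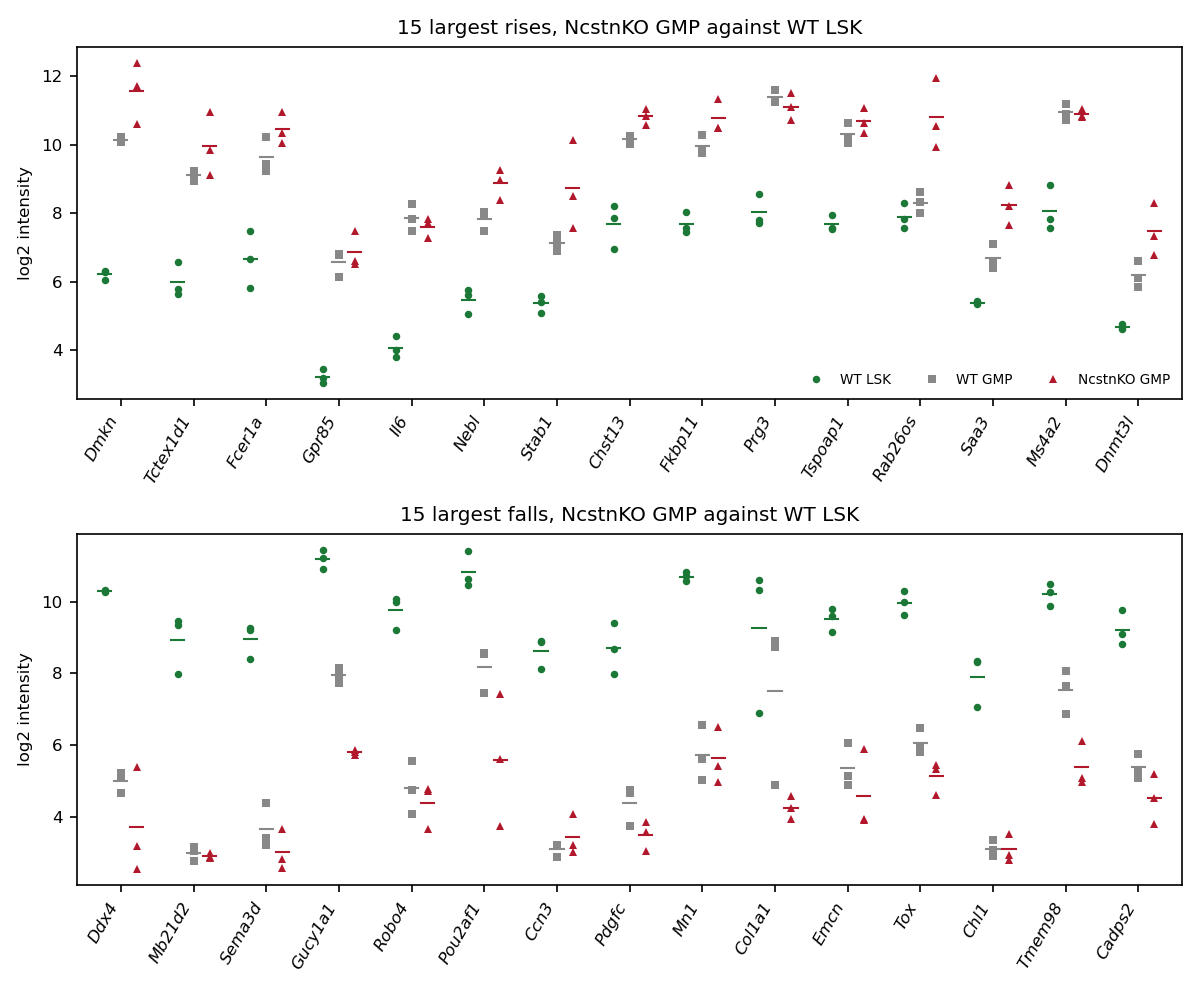
Log2 intensity on each of the 9 arrays for the 15 largest rises and the 15 largest falls of NcstnKO GMP against WT LSK, with short lines at group means and 3 arrays a group. WT GMP lie with or near NcstnKO GMP for most of these genes, and their means stand between the groups for Gucy1a1, Tmem98, Pou2af1, Col1a1, Saa3 and Stab1. For Rab26os they lie near LSK.

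The 15 largest rises, taken from called genes with separate groups whose calls held, had differences of 2.79 to 5.35, with adjusted p from 2.73e-05 to 0.00118. All 3 NcstnKO arrays served to pick them, so these values are no separate check of the rises. Dmkn, a secreted protein best known from skin, read 10.60, 11.71 and 12.39 in NcstnKO GMP, 6.04, 6.32 and 6.28 in LSK and 10.07, 10.23 and 10.08 in WT GMP (5.35 against LSK, 40.8-fold). Its NcstnKO values spread over more than 1 log2 unit, with array 1 the lowest. Il6, the cytokine interleukin-6, was at background in LSK at 3.80, 4.40 and 4.01 and read 7.70, 7.82 and 7.27 in NcstnKO GMP, at least 9.15-fold higher, with WT GMP at 7.83, 8.27 and 7.48. Gpr85, an orphan receptor, was likewise at background in LSK and at least 5.49-fold higher. Stab1, a scavenger receptor, read 7.56, 8.49 and 10.13 in NcstnKO GMP and 5.58, 5.41 and 5.09 in LSK, so that array 3 was the highest by a wide margin (3.36, SE 0.53).

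The other rises were Tctex1d1 (3.97), Fcer1a (3.80), Nebl (3.41), the sulfotransferase Chst13 (3.15), the prolyl isomerase Fkbp11 (3.09), Prg3 (3.08), Tspoap1 (3.0), Rab26os (2.91), the acute phase gene Saa3 (2.84), Ms4a2 (2.83) and Dnmt3l, a cofactor of DNA methyltransferases (2.79). Of these 15 genes, 2 were also called between NcstnKO and WT GMP, Rab26os and Saa3. Other probe sets existed for 4 of the 15. At least 1 of them was called in the same direction for 3, and a second probe set of Nebl was called in the opposite direction (-0.39, adjusted p = 0.00681) at a low signal.

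The largest falls, picked in the same way, ran from -6.60 to -4.72, with adjusted p from 1.5e-06 to 0.00958. Of the 15, 8 were at background in NcstnKO GMP and have only a lower bound. Ddx4, the germ cell RNA helicase Vasa, read 10.27, 10.30 and 10.32 in LSK and 5.39, 2.52 and 3.17 in NcstnKO GMP, with WT GMP at 5.21, 4.65 and 5.14. Its level in NcstnKO GMP was at background in the mean, and the difference was at least 45.8-fold. Gucy1a1, the alpha subunit of the nitric oxide receptor, had the smallest p of the 15 falls, at 5.86, 5.71 and 5.80 in NcstnKO GMP, 11.46, 11.22 and 10.91 in LSK and 7.95, 8.16 and 7.72 in WT GMP (-5.41, SE 0.16, adjusted p = 1.5e-06). The groups were fully separated, and NcstnKO GMP were also below WT GMP (-2.16, adjusted p = 0.00671), though its 2 dimmer probe sets differed from WT GMP by -0.13 and -0.18 and were not called. Robo4, an endothelial guidance receptor also found on stem cells, was at background in NcstnKO GMP and at least 34.0-fold lower.

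Mb21d2 was at least 22.7-fold lower, the guidance ligand Sema3d at least 23.2-fold, the matricellular Ccn3 at least 18.5-fold, the growth factor Pdgfc at least 19.3-fold and the adhesion molecule Chl1 at least 11.2-fold, all at background in NcstnKO GMP. Pou2af1, a B cell coactivator, read 7.43, 5.61 and 3.73 in NcstnKO GMP and 10.48, 10.64 and 11.42 in LSK, so that array 1 was the highest (-5.26, SE 0.80). Mn1 (-5.07), Emcn (-4.95), the lymphoid factor Tox (-4.84), Tmem98 (-4.83) and Cadps2 (-4.72) completed the set with Col1a1, the type I collagen chain. Col1a1 was the least even, at 6.89, 10.33 and 10.61 in LSK, 8.92, 4.87 and 8.74 in WT GMP and 3.92, 4.58 and 4.23 in NcstnKO GMP (at background there and at least 27.5-fold below LSK, adjusted p = 0.00958), and it was not called with NcstnKO array 1 alone (adjusted p = 0.0862). Other probe sets existed for 8 of the 15 falls and were called in the same direction for 7, with dim probe sets of Mb21d2 (0.36, adjusted p = 0.012) and Chl1 (0.37, adjusted p = 0.0211) called in the opposite direction.

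Among genes called both against LSK and against WT GMP, the largest differences show where NcstnKO GMP departed from WT GMP. Trim2, a ubiquitin ligase, read 3.40, 4.84 and 4.05 in NcstnKO GMP, 8.06, 6.51 and 7.37 in WT GMP and 8.84, 8.30 and 8.87 in LSK. It was at background in NcstnKO GMP, at least 17.0-fold below LSK, and at least 6.63-fold below WT GMP (adjusted p = 0.0252). The 5 dimmer probe sets of Trim2 were not called against WT GMP (-1.04 to -0.02). Scd1, a fatty acid desaturase, read 6.94, 5.74 and 6.11 in NcstnKO GMP against 8.73, 8.16 and 8.69 in WT GMP and 10.55, 10.64 and 11.24 in LSK, with 3 separate groups. Myh10, a non-muscle myosin heavy chain, read 6.21, 6.90 and 6.98 against 9.79, 8.02 and 9.26 in WT GMP (-2.33, adjusted p = 0.0314) and was 16.8-fold below LSK. Tlcd4, Ermap, Slc38a5 and Gucy1a1 followed. Slc26a1, Acsl6 and Sowaha completed the set, at background in NcstnKO GMP and at least 4.68-fold, 3.83-fold and 3.15-fold below WT GMP. Dimmer probe sets of Scd1 (0.04), Myh10 (0.15) and Acsl6 (-0.81) were not called against WT GMP. That of Slc26a1 (-2.07) was called, as were those of Tlcd4 at -2.59 and -2.51 but not the one at -0.57.

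In the other direction, Rab26os, a noncoding transcript, read 9.93, 10.55 and 11.94 in NcstnKO GMP, 8.32, 8.62 and 7.99 in WT GMP and 7.58, 8.29 and 7.83 in LSK, above both (2.91 against LSK and 2.50 against WT GMP, adjusted p = 0.0338). Saa3 was above both as well (2.84 and 1.55), as was the histone gene H3c4 (1.82 and 1.30). Asb5, at background in LSK, was at least 3.04-fold above LSK and above WT GMP by 1.46 (log2). Clrn3, at background in both WT groups, was at least 1.59-fold above LSK and at least 1.67-fold above WT GMP. Wfdc17 and Ceacam10 lay between the WT groups, above WT GMP and below LSK. Cd86 and Thy1 did so as deposited only. Dimmer probe sets of Ceacam10 (1.39 and 0.17) and Cd86 (0.45) were not called against WT GMP. Thy1 read 7.33, 6.79 and 7.36 in NcstnKO GMP, 5.91, 5.60 and 5.85 in WT GMP (1.37, adjusted p = 0.0249) and 7.76, 7.74 and 8.17 in LSK (-0.73, adjusted p = 0.0118). Its difference from LSK was not called when quantile normalized (-0.11, adjusted p = 0.671), after 75th-percentile centring (-0.35, adjusted p = 0.143), after median centring (-0.14, adjusted p = 0.536) or with NcstnKO array 1 alone (adjusted p = 0.1). The costimulatory ligand Cd86 was called against LSK as deposited (-0.98, adjusted p = 0.0174). That call was lost under quantile (-0.35, adjusted p = 0.34), 75th-percentile (-0.60, adjusted p = 0.0907) and median scaling (-0.39, adjusted p = 0.214). It was also lost without LSK array 1 (adjusted p = 0.0604), with NcstnKO array 1 alone (adjusted p = 0.114) and with transcript sex (adjusted p = 0.0661) or the Actb ratio (adjusted p = 0.0892) as a covariate. Itgae, an integrin chain, was above LSK by 0.75 (adjusted p = 0.0397), and that call was lost without LSK array 1 or 2, WT GMP array 1 or NcstnKO array 1 or 3 (adjusted p = 0.102, 0.125, 0.0564, 0.0645 and 0.125).

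The calls against WT GMP were less stable than those against LSK. The 601 genes became 57 with a replicate block, 38 with NcstnKO array 1 alone and 2 with a term for the sex that the transcripts show. Without 1 array, the count was 2 without WT GMP array 3, 16 without NcstnKO array 2, 24 without NcstnKO array 3, 66 without WT GMP array 2, 148 without LSK array 1, 219 without NcstnKO array 1, 234 without WT GMP array 1, 303 without LSK array 3 and 407 without LSK array 2. Of the 20 genes named here for their difference from WT GMP, Gucy1a1 was called in 9 of 9 such fits, Trim2 and H3c4 in 7, and Tlcd4 in 0.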

How the data were processed

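Affymetrix arrays of 3 groups (3 WT LSK, 3 WT GMP, 3 NcstnKO GMP; groups from the labels) were used. The authors deposited linear intensities for 45101 probe sets, from 3.79 to 23176, made with RMA per the submitters' processing notes, version not stated; it is not given in the sources used here whether the 9 arrays went through it together. Their log2 values were taken from these deposited intensities. Arrays have no sequencing depth, and their number limits precision. GEO's annotation gave 34945 probe sets exactly 1 symbol (932 several, 9160 none, 64 controls), of which 34741 matched RefSeq GRCm38.p6 by Entrez ID, with 0 symbols changed.

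Every adjusted p is from limma 3.58.1 (R 4.3.3; lmFit, eBayes, 2-sided, 3 group means over 9 arrays, 6 residual degrees of freedom), adjusted by Benjamini-Hochberg over the 34945 probe sets and called under 0.05. A gene is its probe set with the highest mean over the 9 arrays (18193 genes). Background is the 95th percentile of 27 unspiked bacterial control probe sets, 4.30 to 4.57 (log2), and "at least" folds are measured against it on each array. The script was tested on simulated data. The permutation test used scipy 1.17.1 in Python 3.11.15.

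Members, 26 lists and the naming rule were chosen with earlier results of these data known. The rule names gamma-secretase subunits, the 15 largest rises and falls (called, not overlapping, held under 3 scalings, no sex-linked, predicted or antigen receptor genes), up to 4 members a list by smallest p, members against a list's direction, the 10 largest differences each way from WT GMP among genes called in both comparisons, and the sort genes. Same-numbered LSK and NcstnKO arrays did not deviate together from their group means (correlations 0.0461, -0.0171 and 0.0355), so no replicate term is in the main design. Same-numbered LSK and WT GMP arrays did (0.239, 0.238 and 0.288), so WT GMP against LSK was also fitted with the replicate number as a block, chosen after seeing the data. The block changed the 6651 genes to 6296, and its count is given where it moved a list by over 1.5 times. Alternatives were other scalings, filters, probe set rules, covariates, a replicate block and leaving out arrays.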

Additional observations from a re-analysis of the deposited data

Results flagged for a closer look

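NcstnKO GMP and WT GMP were each set against the same LSK arrays. The genes below differed between those comparisons by limma's NcstnKO minus WT GMP contrast (log2, adjusted p under 0.05). They are genes picked by the naming rule from the 601 called, not the full set. Among called genes left out here but given above are Stfa3, Il1r2, Asprv1, Oas1a and Psmb9, which were higher. Usp18, Msi2, Vwf, F2r and Pofut1, which were lower, are left out too. Among genes named for lineage, NcstnKO GMP were lower for the erythroid genes Klf1 (-2.01), Ermap (-2.50), Aqp1 (-1.82) and Slc38a5 (-2.26), the erythroid and megakaryocytic factor Gfi1b (-1.30), the platelet granule gene Rab27b (-0.82), the complement genes C1qa (-0.91) and C1qc (-1.46), the lymphoid factor Bcl11a (-0.63), the integrin Itga4 (-0.62) and the spindle gene Prc1 (-0.42), and higher for the oxidase subunit Cyba (0.54). The targeted gene Ncstn differed by -1.50. The other probe sets of Rab27b, Prc1 and Ncstn were not called against WT GMP, nor were most of those of Bcl11a and Itga4.

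The other genes of this set that were lower than in WT GMP were Trim2 (-3.21), Tlcd4 (-2.58), Myh10 (-2.33), Slc26a1 (-2.32), Acsl6 (-2.28), Scd1 (-2.26), Gucy1a1 (-2.16), Sowaha (-2.15) and Tmem98 (-2.14). Those of the set that were higher were Rab26os (2.50), Wfdc17 (1.91), Ceacam10 (1.78), Saa3 (1.55), Cd86 (1.48), Asb5 (1.46), Thy1 (1.37), Itgae (1.36), Clrn3 (1.31) and H3c4 (1.30). Trim2, Slc26a1, Acsl6 and Sowaha were at background in NcstnKO GMP and Clrn3 in WT GMP, so their fitted differences are no bounds. The other probe sets of Trim2, Myh10, Acsl6, Scd1, Gucy1a1, Ceacam10 and Cd86 were not called against WT GMP. The NcstnKO and WT GMP groups also differed in Actb 3' to 5' ratio (0.899 ± 0.14 against 0.577 ± 0.111, SD, n = 3 each, exact 2-sided permutation p = 0.1, the smallest p possible) and in the sex their transcripts show. With the Actb ratio as a covariate 0 genes were called against WT GMP, and with transcript sex as a covariate 2 were. The cause of these differences was not tested.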

How the results depend on the processing

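Against LSK, 15753 probe sets and 8316 genes were called. The genes called were 12719 after centring on the array median, and 5237 (9865 probe sets) with NcstnKO array 1 alone. Higher genes numbered 5233, 7718 and 10461 and lower genes 3690, 3123 and 2258 under quantile, 75th-percentile and median scaling. Centring shifts all differences by 1 amount, while quantile normalization moves them by unequal amounts. Higher genes were 1640 without the dimmest 40% of probe sets and 1291 with NcstnKO array 1 alone. Of the 8316 genes, 6224, 5676 and 4811 were called in the same direction under those 3 scalings, 6113 with a covariate for transcript sex and 6519 with a covariate for the Actb ratio, and 6883 to 7876 without 1 array. The replicate block, in which the numbers are treated as pairs, called 8048 genes against LSK and kept 7759 of the 8316. WT GMP against LSK gave 6296 genes with the block and, in a fit of those arrays alone, 6570 without it and 6230 with it (antigen presentation genes 5 lower and monocyte genes 11 lower there).

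Against WT GMP the 601 genes became 1064 without the dimmest 40% of probe sets, 1037 with 1 probe set a gene before adjustment, 57 with the replicate block, 38 with NcstnKO array 1 alone, 2 with only the arrays of both groups, 1 with label sex, 2 with transcript sex as a covariate and 0 with the Actb ratio (1835 at an unadjusted p under 0.05 by limma), and 2 to 407 without 1 array. The cause was not tested. Ncstn stayed called against LSK in every alternative run.

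Signs against LSK turned for Aph1a (-0.03; 0.13 quantile, 0.35 75th percentile, 0.56 median, 0.13 with NcstnKO array 1 alone, -0.11 to 0.07 without 1 array), Psenen (0.32 and 0.53 after 75th-percentile and median centring), Tapbp (0.10 and 0.31 likewise) and, after median centring, Ctss (0.13), H2-DMa (0.14), Rac2 (0.18) and Nusap1 (0.00). H2-DMa was not called without LSK array 1, 2 or 3 or NcstnKO array 3 (adjusted p = 0.0604, 0.0504, 0.0615 and 0.0765). Low signal limits genes near background, where folds are lower bounds.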
